A study of Mus musculus with 3 samples.

Results

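The 10 genes described here encode feedback inhibitors and ETS effectors of fibroblast growth factor (FGF) signalling, out of 21887 protein-coding genes in the gene table used. They were taken as a named set: the sprouty genes Spry1, Spry2 and Spry4, the sprouty-related genes Spred1 and Spred2, the phosphatase gene Dusp6, the membrane antagonist gene Il17rd, and the ETS factor genes Etv1, Etv4 and Etv5. For each gene, peaks were collected at its ends (within 1 kb of either border), inside it, and within 50 kb on each side, which gave 31 of 33035 CHD7 peaks and 117 of 155548 SOX2 peaks. The libraries came from cells of 34 pooled wild-type mouse otocysts, the epithelial vesicles that form the inner ear, dissected at the stage E10.5 and split evenly. One portion was treated with an antibody against CHD7, a chromatin remodeler mutated in CHARGE syndrome, one with an antibody against SOX2, a transcription factor of sensory precursors, and one with no primary antibody, which is not analysed here. In CUT&Tag, an antibody directs the Tn5 transposase to cut and tag DNA near the protein it recognises. All otocysts were wild-type and pooled, there was 1 library for each antibody, and so no value below has a replicate check or a spread between samples. Read depth is unknown, and a peak is a called region of signal, which does not by itself show binding.

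FGF ligands bind receptor tyrosine kinases and activate RAS and the kinase ERK. ERK signalling in turn raises transcription of the PEA3 group of ETS factors (ETV1, ETV4 and ETV5), which carry the response to target genes, and of inhibitors that limit the same pathway. Sprouty and SPRED proteins act at or above RAS and RAF, DUSP6 removes the activating phosphates from ERK, and IL17RD, also called SEF, is a transmembrane antagonist. In the ear, FGF signals from the mesoderm and hindbrain induce the otic placode, and FGFs act again in otic neurogenesis, canal formation and the organ of Corti.

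The sequences around the gene starts show how differently the peaks sit from gene to gene. RefSeq promoter windows of GRCm38.p6 (mm10), running from 250 bases before a gene start to 50 bases after it, were available for 8 of the 10 genes, with 10 windows in all because Etv1 and Etv5 each had a second start. The 4 sequences shown are the 3 windows with bases in peaks of both lists, and 1 window with bases in neither, that of Spry2. Capitals mark matches to the SOX motifs ACAAAG and ACAATG and the ETS motif CCGGAA, searched on both strands. Each is printed 5′ to 3′ along its gene.
Dusp6 (chr10:99262981-99263280, plus strand): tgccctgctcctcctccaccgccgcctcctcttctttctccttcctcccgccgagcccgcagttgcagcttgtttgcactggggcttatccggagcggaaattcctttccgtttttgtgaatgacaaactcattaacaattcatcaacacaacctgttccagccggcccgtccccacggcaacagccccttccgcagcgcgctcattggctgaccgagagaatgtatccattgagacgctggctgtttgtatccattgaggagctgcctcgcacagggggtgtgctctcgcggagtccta
Etv5 (chr16:22439521-22439820, minus strand): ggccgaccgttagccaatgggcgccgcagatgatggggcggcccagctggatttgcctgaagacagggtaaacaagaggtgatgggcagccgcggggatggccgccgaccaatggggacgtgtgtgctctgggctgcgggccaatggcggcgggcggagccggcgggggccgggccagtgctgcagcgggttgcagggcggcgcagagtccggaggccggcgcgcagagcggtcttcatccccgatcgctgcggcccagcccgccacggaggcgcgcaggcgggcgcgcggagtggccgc
Il17rd (chr14:27038751-27039050, plus strand): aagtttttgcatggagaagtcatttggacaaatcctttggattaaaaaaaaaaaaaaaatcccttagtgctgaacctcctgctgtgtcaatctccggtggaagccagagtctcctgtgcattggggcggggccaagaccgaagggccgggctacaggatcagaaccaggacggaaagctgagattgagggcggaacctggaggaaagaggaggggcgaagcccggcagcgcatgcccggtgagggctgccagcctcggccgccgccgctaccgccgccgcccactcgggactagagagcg
Spry2 (chr14:105896770-105897069, minus strand): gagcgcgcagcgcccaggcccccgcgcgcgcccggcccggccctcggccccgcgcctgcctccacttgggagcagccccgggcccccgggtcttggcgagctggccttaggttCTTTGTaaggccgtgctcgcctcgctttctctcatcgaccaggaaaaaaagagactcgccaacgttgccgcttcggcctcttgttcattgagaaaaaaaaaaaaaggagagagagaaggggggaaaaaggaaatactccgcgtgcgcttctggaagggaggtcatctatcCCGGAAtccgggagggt

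The Dusp6 and Etv5 windows lay wholly within peaks of both lists, with 300 of 300 bases covered by each. The Il17rd window had 200 bases in a CHD7 peak and 150 in a SOX2 peak. These 3 windows held no match to any of the 3 motifs. The Spry2 window held 1 match to ACAAAG, read on the opposite strand as CTTTGT from base 114, and 1 to CCGGAA from base 284, although no peak covered it. Outside the sequences shown, the Spred2 window and the second Etv5 window each held 1 match to ACAAAG. Across 21263 promoter windows of protein-coding genes 25.7% held ACAAAG or ACAATG and 18.7% held CCGGAA, and among the 5016 windows with bases in peaks of both lists the shares were 16.7% and 28.9%. A match describes letters only, and the motifs do not overlap each other in these windows. Of the 10 windows of the set 5 had bases in a CHD7 peak, against 27.3% of all windows, 5 in a SOX2 peak, against 43.3%, and 3 in both, against 23.6%. GC content was 57.3% with 19 CpG dinucleotides for Dusp6, 74% with 37 for Etv5 and 58.3% with 19 for Il17rd. The windows of the set without a base in either list had 62.7% and 28 CpGs for Spry2, 60% and 19 for the second Etv5 start, and 44% and 3 for the second Etv1 start. The medians were 56.3% and 13 CpGs over all windows, 63.7% and 24 over those in both lists, and 50.3% and 5 over the 11267 windows in neither, and the part of base composition in these peaks was not tested.

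At the gene ends the set had a higher share of genes with a peak than all genes did, for both proteins. A CHD7 peak was at an end of 8 of the 10 genes, where 30.8% of all protein-coding genes had one. A SOX2 peak was at an end of 10 of 10, where the share of all genes was 59.7%. Both were present at 8 of 10, against 28.3%, and at the same 8 genes a CHD7 end peak overlapped a SOX2 end peak, against 26.5%. Spry1 and Etv4 had SOX2 without CHD7, a state found at 31.4% of all genes, and 0 of 10 had CHD7 without SOX2, against 2.51%. The genes were chosen with earlier results of these data known, so the counts describe the set and no test was made. For the 8 genes with a strand in the promoter table the peaks could be placed at the start: 7 had CHD7 at the start-side end, against 29.2% of 17492 genes, 8 had SOX2, against 52%, and 7 had both, against 26.4%. Spry1 was the 1 of these 8 without CHD7.

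**Figure D1:**
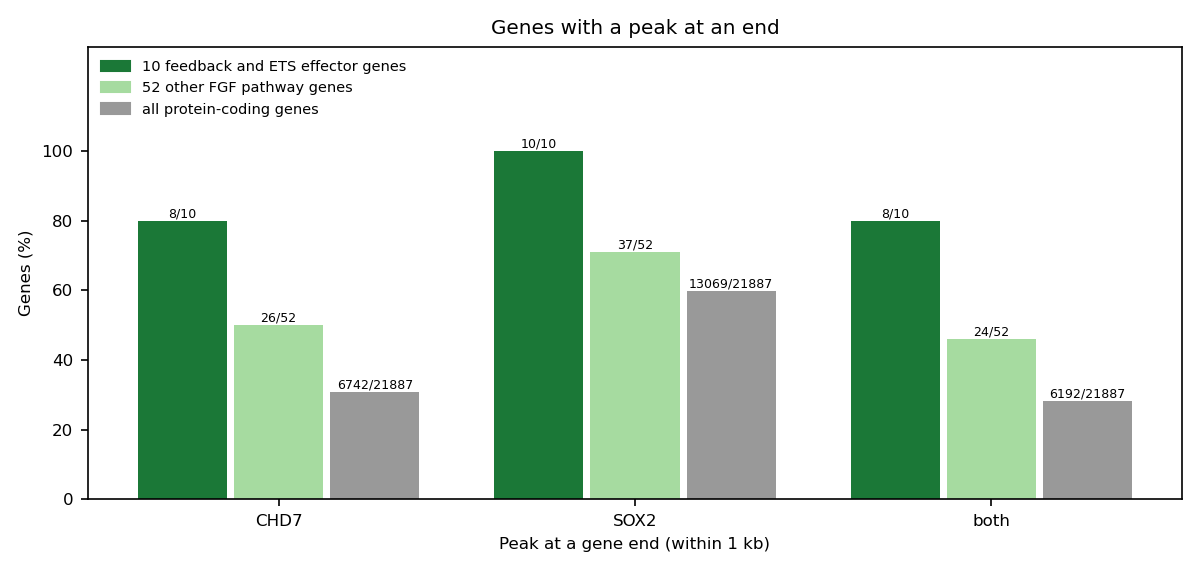
Percentage of genes with a peak within 1 kb of either end, for CHD7, SOX2 and both, in the 10 feedback and ETS effector genes, in 52 other FGF pathway genes and in 21887 protein-coding genes (numbers of genes above the bars). For CHD7 the bars stand at 8 of 10, 26 of 52 and 6742 of 21887 genes.

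The signal at the ends differed widely within the set. Each peak carries the authors' total coverage signal, which has different scaling in each list and was compared only within a list. Dusp6 had the highest summed end signal of the set in both lists, 2669 for CHD7 and 9031 for SOX2, above 96.2% and 97.8% of the genes with an end peak of that list. Its SOX2 sum adds a peak of 7917 at the start and one of 1114 at the other end. The single SOX2 end peak of Etv1, at 8416, was stronger than either. Etv1 followed in both, with 1375 for CHD7 (above 80.9%) and 8416 for SOX2 (above 97.2%). Il17rd was the lowest of the 8 genes with CHD7, with 583 (above 26.8%), and had 1994 for SOX2 (above 48.2%). Spred2 had the lowest SOX2 end signal, 1613 (above 38.1%), beside a CHD7 end signal of 1088 (above 69.5%). That CHD7 value summed 2 peaks of 547 and 542, above only 31.1% and 30.7% of the CHD7 list. The other genes with both lay between: 1289 and 3108 for Spred1, 1243 and 4457 for Spry2, 1211 and 4574 for Etv5, and 1057 and 4164 for Spry4, with CHD7 first in each pair. The CHD7 value of Spry2 likewise summed peaks of 588 and 656, above 39.4% and 50.5% of the list. A summed end signal is therefore not the strength of any single peak. Without replicates, it cannot be said which neighbours in these orders differ beyond error.

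**Figure D2:**
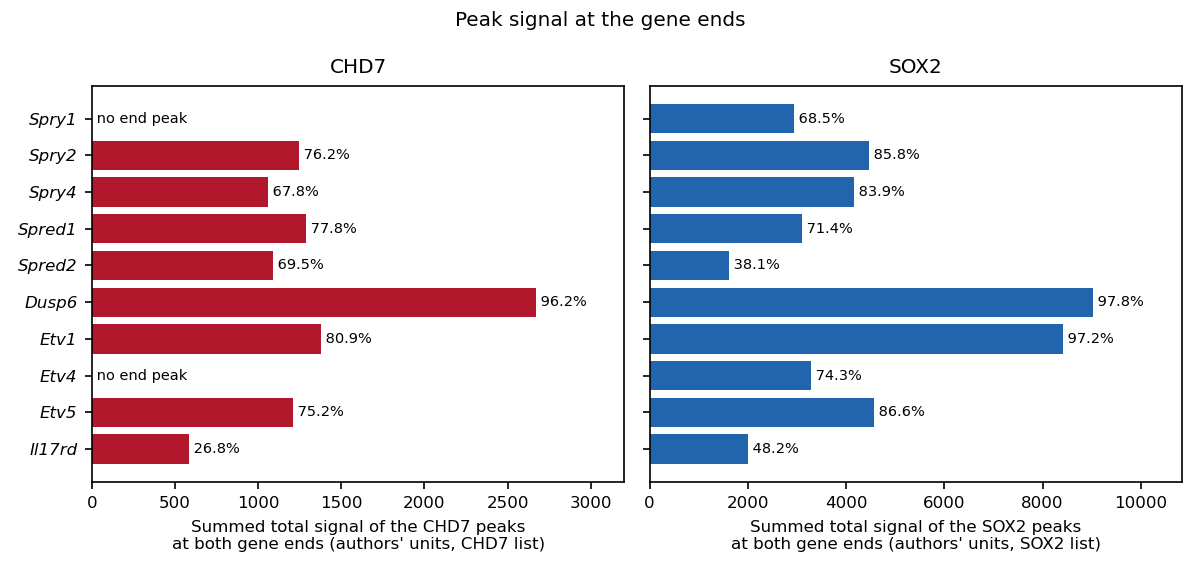
Summed total signal of the CHD7 peaks (left) and SOX2 peaks (right) within 1 kb of the ends of each gene, in the authors' units of each list, with the percentage of genes with an end peak whose signal was lower. Dusp6 is highest in both panels, at 2669 and 9031, and Spry1 and Etv4 have no CHD7 end peak.

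Dusp6, the ERK phosphatase gene (chr10:99263231-99267489), had a broad peak over its start in each list. Its CHD7 peak ran from 99261501 to 99265000, a width of 3500 bases that exceeded 99.3% of the CHD7 list. Its main SOX2 peak ran from 99262301 to 99266150, a width of 3850 bases that exceeded 99.9% of the SOX2 list, with a total signal of 7917. The centres of maximum signal of these peaks were 100 bases apart, on either side of the gene start. The maximum was 3.83 for CHD7, above 86.5% of the list, and 5.28 for SOX2, above 83% of its list. The mean signal per base was 0.763, above 51.3%, and 2.06, above 68.8%, so both ranked lower in height than in width. A second SOX2 peak, from 99267501 to 99268250 (total signal 1114), lay at the end of the gene. The CHD7 list had no other peak within 50 kb of Dusp6, and the SOX2 list had 5 others.

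Wide SOX2 domains recurred at the ETS factor genes Etv1 and Etv5. At Etv1 (chr12:38780082-38870483) the SOX2 peak spanned 2750 bases, from 38778051 to 38780800, with a total signal of 8416, above 99.5% of the list. The CHD7 peak there, from 38778201 to 38779700 (total signal 1375), stopped 381 bases before the gene start, so it covered none of the promoter window that SOX2 covered whole. At Etv5 (chr16:22381313-22439570) the SOX2 peak spanned 2500 bases, from 22438801 to 22441300 (total signal 4574, above 98.1% of the list), and the CHD7 peak 800 bases, from 22439251 to 22440050 (total signal 1211, above 84.6%). With the limit set after seeing these widths, 3 of the 10 genes had a SOX2 end peak of at least 2500 bases, against 0.571% of all genes. For CHD7, 1 had such a peak, Dusp6, against 0.562%. The limit is the width of the Etv5 peak itself, so the SOX2 count was fixed by the set's own widths. The shares of all genes are given as a description only. The promoter windows of the second starts of Etv1 and Etv5 had no base in a peak of either list.

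Spry2 and the SPRED genes showed other arrangements at the start. At Spry2 (chr14:105891947-105896819, minus strand), a sprouty gene needed for normal patterning of the organ of Corti in mice, CHD7 peaks at 105895851 to 105896650 (total signal 588) and 105897101 to 105898250 (656) stood on either side of the start. SOX2 peaks did the same, at 105895151 to 105896650 (3050) and 105897251 to 105898000 (1407), so that the start itself and the sequence printed above were in a gap of both lists. Another overlapping pair followed upstream, with CHD7 at 105898401 to 105899400 (993) and SOX2 at 105898601 to 105899400 (1994). The strongest SOX2 peak of the Spry2 locus lay inside the gene, at 105892951 to 105893850 (3519), and overlapped no CHD7 peak. At Spred1 (chr2:117121071-117182279) a CHD7 peak reached over the start, from 117120001 to 117121200 (total signal 1289), while the SOX2 peak at 117120101 to 117120700 (3108) ended 370 bases before it, with maxima centred at the same place. That SOX2 peak was high for its width of 600 bases, with a maximum of 10.6 and a mean of 5.18 per base, against 2.06 at Dusp6. At Spred2 (chr11:19924442-20024026) 1 CHD7 peak covered the start, from 19923601 to 19925100 (547), and a second lay just inside the gene, from 19925251 to 19926300 (542), both weaker than the list's median of 651. The SOX2 peak from 19924901 to 19926300 (1613) touched both and left the start uncovered.

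Il17rd had peaks of both lists at its start and several inside the gene. At chr14:27038964-27107286, its CHD7 start peak ran from 27038851 to 27040000 (total signal 583, above 38.1% of the list) and its SOX2 start peak from 27038901 to 27040400 (1994, above 89.3%). Inside the gene CHD7 peaks at 27050551 to 27052250 (560), 27065801 to 27067100 (742) and 27067201 to 27068500 (433) each overlapped a SOX2 peak. The last was close to the floor of the CHD7 list, of which 0.194% was weaker. SOX2 had 9 peaks inside Il17rd, the strongest at 27050351 to 27051650 (2698, above 94.4% of the list). Several of the 9 were weak. The lowest, at 762 with 2.73% of the list weaker, were near the smallest SOX2 total of 733.

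**Figure D3:**
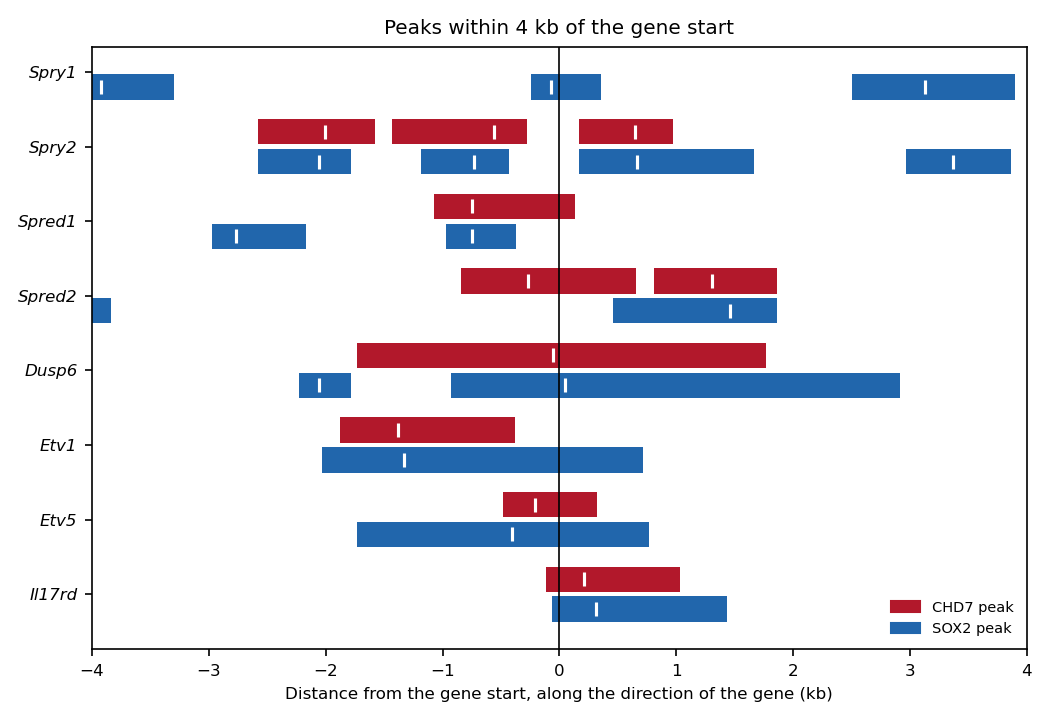
Peaks within 4 kb of the gene start for the 8 genes with a known strand, drawn along the direction of the gene, with CHD7 above SOX2 and a white tick at the centre of each peak's maximum. Dusp6 has 1 wide peak of each list over its start, Spry2 has peaks on both sides of an uncovered start, and Spry1 has SOX2 alone.

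Spry4 shares its end with a neighbour. Arhgap26 lies 269 bases beyond the higher-coordinate border of Spry4 (chr18:38586247-38601347). The CHD7 peak from 38600501 to 38602050 (total signal 1057) and the SOX2 peak from 38601651 to 38602650 (3372) reached into Arhgap26, and these and a weaker SOX2 peak at 38600151 to 38600850 (792) lay within 1 kb of an end of either gene. The peaks therefore cannot be assigned to one of the 2 genes. With these included, the Spry4 locus held 2 CHD7 and 6 SOX2 peaks.

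Spry1 and Etv4 carried SOX2 at both ends and CHD7 only at a distance. Spry1 (chr3:37639947-37644599) had SOX2 peaks at 37639701 to 37640300 (total signal 1173) and 37642451 to 37643850 (1759). Its 1 CHD7 peak, from 37656901 to 37658200 (906), lay 12301 bases beyond the gene and overlapped SOX2 peaks at 37656951 to 37657450 (1583) and 37658001 to 37658350 (762). Etv4 (chr11:101769747-101785310), a gene transcribed in FGF-responsive tissue and a common readout of the pathway, had SOX2 peaks at 101769651 to 101770450 (1056) and at 101784901 to 101785450 (2229), and 4 more inside. The nearest CHD7 peak, from 101789851 to 101790100 (765), lay 4540 bases away and overlapped SOX2 at 101789151 to 101790250 (2229). The absence of a call depends on the threshold of the list: it says that CHD7 signal at these ends was not called, not that the protein was absent.

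**Figure D4:**
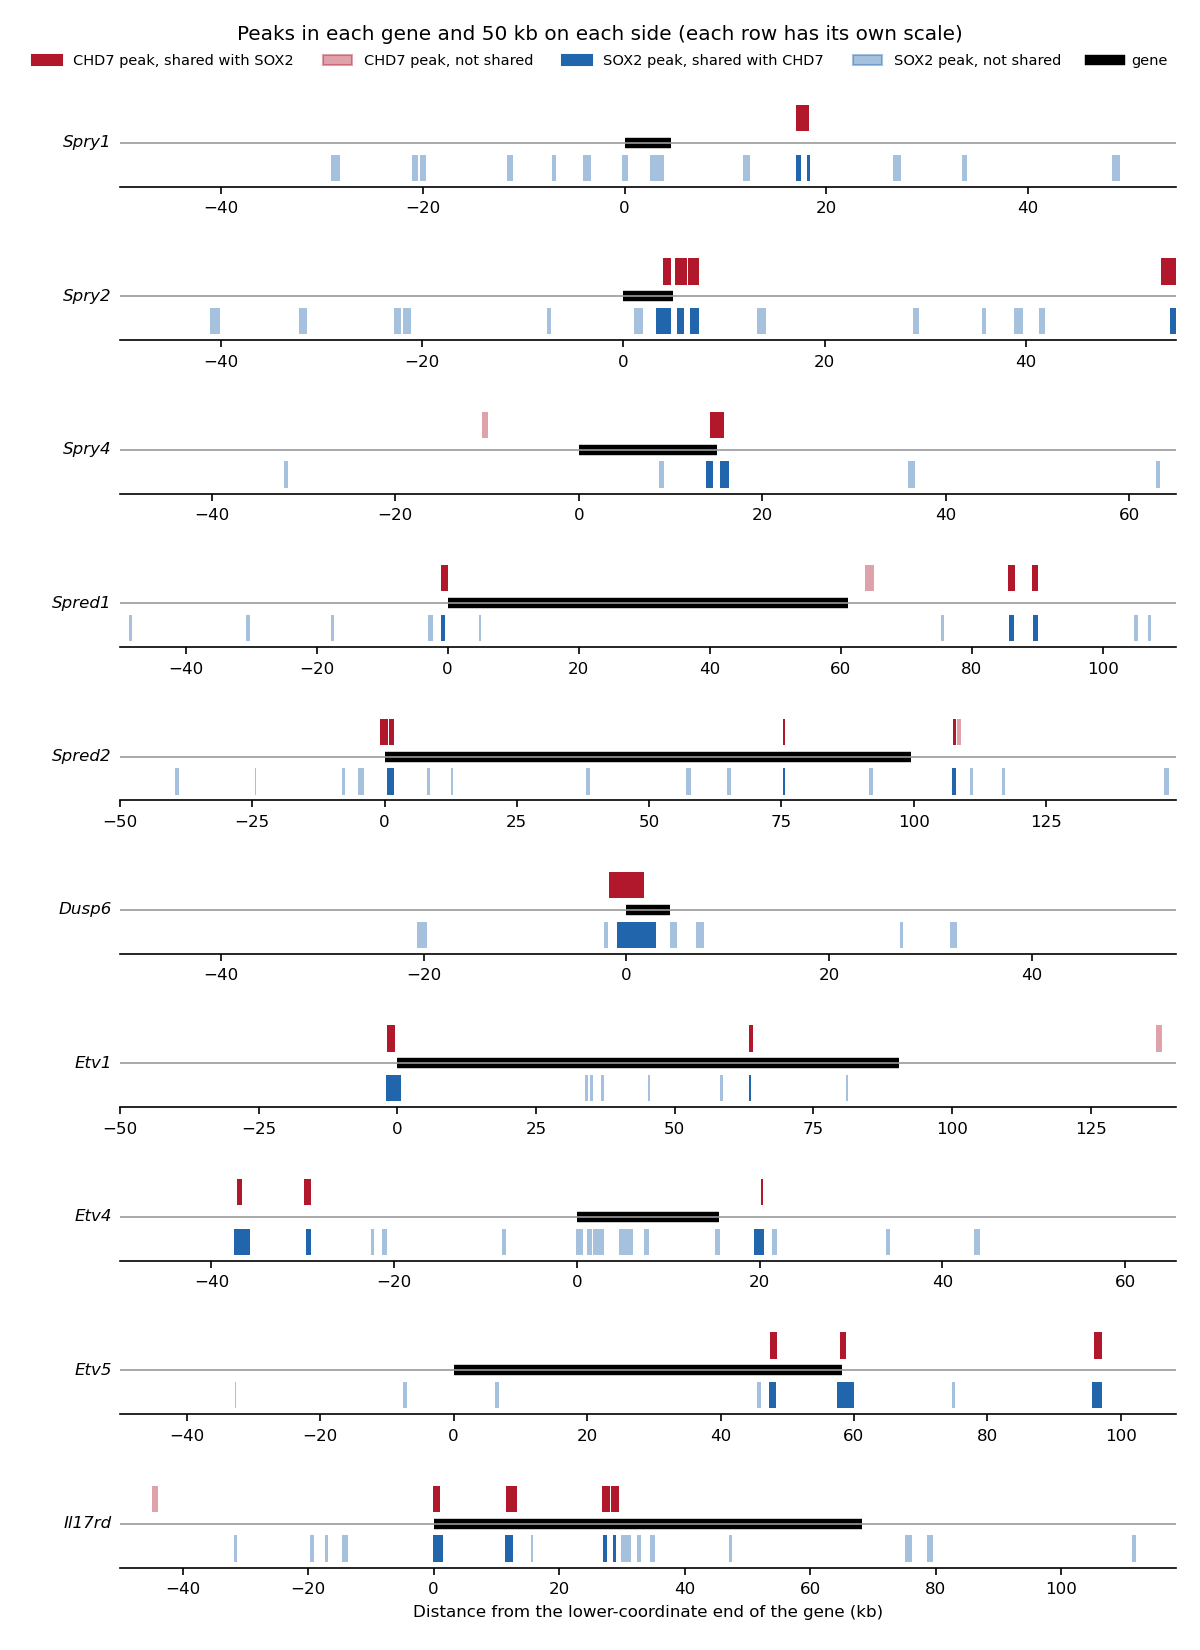
Peaks of both lists in each gene (black bar) with 50 kb on each side, placed by distance in kb from the lower-coordinate end, with CHD7 above the line and SOX2 below it, and paler where the peak overlaps none of the other list. Every row has its own scale. CHD7 peaks lie at the ends of 8 genes and mostly on SOX2 peaks, while many SOX2 peaks lie alone.

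The strongest overlapping pair lay outside the gene at Spry1, Spry2, Spred1, Spred2, Etv4 and Etv5, ranked by the weaker peak's place in its list. At Spry2 the pair was a CHD7 peak of 4300 bases and a SOX2 peak at 105946201 to 105946850 (total signal 1583), with centres 525 bases apart. That CHD7 peak had a maximum of 1.28, above 20.7% of the list. Beyond Spred2 by 7924 bases, a CHD7 peak at 20031951 to 20032450 (total signal 1690, above 91.7% of the list) overlapped a SOX2 peak at 20031751 to 20032450 (3900, above 97.4%). Both were high for their widths of 500 and 700 bases, with maxima of 8.65 and 15.8 and centres 50 bases apart. Beyond Spred1 by 24321 bases, CHD7 at 117206601 to 117207650 (1617) overlapped SOX2 at 117206751 to 117207550 (4310), and a further pair followed at 117210301 to 117211200 (CHD7, 1070) and 117210501 to 117211250 (SOX2, 1173). Both of these Spred loci thus had a distal SOX2 peak with more total signal than the SOX2 peak at the start. Inside Spred2, a CHD7 peak at 19999701 to 20000150 (642) overlapped a SOX2 peak at 19999701 to 20000100 with a total signal of 3050 and a maximum of 11.7.

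Some distal peaks belong to the loci of other genes as well. The strongest CHD7 peak of the Etv4 locus, at 101739901 to 101740700 (total signal 2764, above 97% of the list), lay inside Dhx8, an RNA helicase gene, and overlapped a SOX2 peak at 101740101 to 101740650 (1173). A CHD7 peak at 101732501 to 101733100 (628) and a SOX2 peak at 101732251 to 101734000 (2346) were at an end of Dhx8. The Etv5 pair at 22477351 to 22478550 (CHD7, 1517) and 22477001 to 22478500 (SOX2, 2229) lay inside the neighbour Dgkg, a diacylglycerol kinase gene. In the Il17rd locus, a CHD7 peak at 26994001 to 26995000 (601) was at an end of Hesx1, a homeobox gene, and a SOX2 peak at 27114051 to 27115150 (1877) at an end of Arhgef3. In all, 3 of the 31 CHD7 peaks and 4 of the 117 SOX2 peaks were within 1 kb of an end of a protein-coding neighbour. Another 3 CHD7 and 10 SOX2 peaks were within 1 kb of an end of a noncoding gene. They include the CHD7 peak of Spry1 and the first SOX2 peak under it, at Gm46799, and the nearest CHD7 peak of Etv4 with its SOX2 peak and the SOX2 peak at the higher-coordinate end of Etv4, at Gm39392. The main SOX2 peak of Dusp6 was also within 1 kb of an end of Gm34921. The widest CHD7 peak of the set, 4300 bases from 105945351 to 105949650 (total signal 2578), lay 48531 bases upstream of Spry2, crossed the 50 kb limit and had a mean signal of 0.599 per base, above 30.1% of the list.

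The number of peaks per locus varied within the set and lay on either side of that of genes of similar locus length. Locus length is the gene with 50 kb on each side, so for short genes most genes count as similar. For Etv4 these were 15709 of the 21887 genes. CHD7 peaks numbered 1 to 5 per locus, with a median of 3, and the median of all genes was 2. Among genes whose locus length was within 20% of the member's own, 7 of the 10 genes lay above the median for CHD7, 1 at it and 2 below. Spry2 and Spred1 each had 4 CHD7 peaks against a median of 2 in similar loci, and Spred2 had 5 against 3. For SOX2 the set had 6 to 17 peaks per locus, with a median of 12.5 against 10 for all genes, and 5 genes lay above the median of similar loci, 1 at it and 4 below. Il17rd had 5 CHD7 peaks, as many as Spred2, and the most SOX2 peaks, 17, numbers reached by 13.4% and 20.3% of 4380 genes of similar locus length. Dusp6, with the highest summed end signals, had 1 and 7, reached by 78% and 65.2% of 13282 such genes. A CHD7 peak was present in all 10 loci, where 82.9% of all genes had one, a CHD7 peak shared with SOX2 in all 10, against 74.6%, and a SOX2 peak in all 10, against 98.7%. Inside the gene, away from its ends, 4 of 10 had CHD7, against 22.2%, and 8 of 10 had SOX2, against 56.7%, without regard to gene length. In the flanks 9 of 10 had CHD7, against 72.6%, with none at Dusp6, and 9 of 10 had SOX2, against 98.3%, with none at Etv1.

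**Figure D5:**
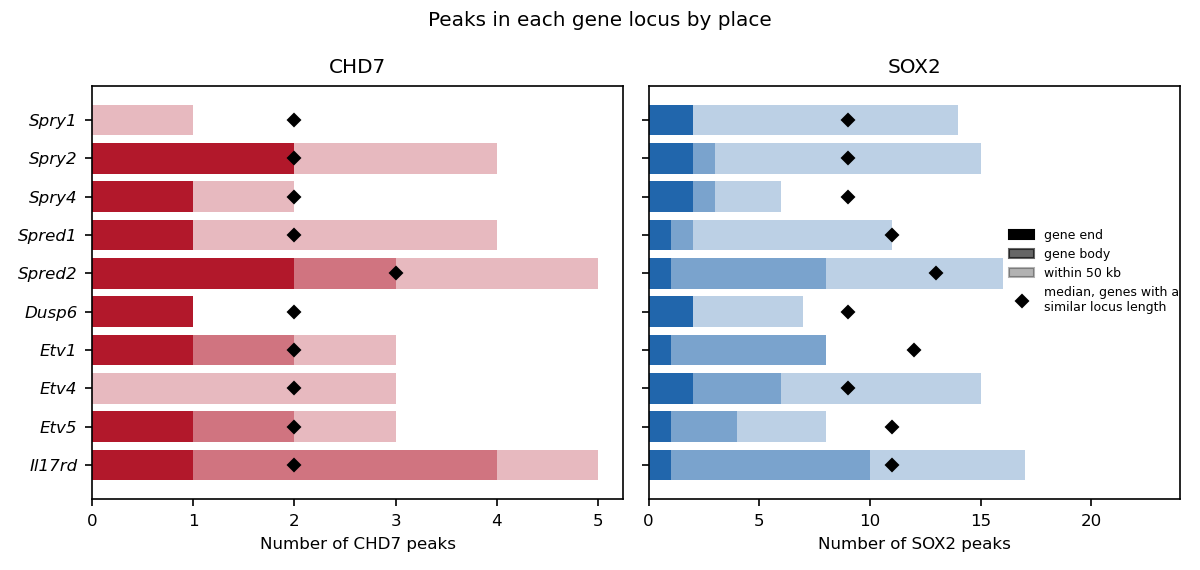
Number of CHD7 peaks (left) and SOX2 peaks (right) in each locus, split into gene ends, gene body and the 50 kb on each side, with the median of genes with a similar locus length as a diamond. Il17rd has 5 CHD7 peaks, as Spred2 does, and the most SOX2 peaks, 17, and Dusp6 has 1 and 7.

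Most CHD7 peaks around these genes lay on a SOX2 peak. Of the 31 CHD7 peaks 26 shared at least 1 base with a SOX2 peak, or 83.9% (exact 95% binomial interval 66.3% to 94.5%, counting error only), against 21560 of 33004 CHD7 peaks elsewhere, or 65.3% (64.8% to 65.8%), just below the interval of the set. The set's share was 29% when only the places of highest signal of both peaks were required to overlap, against 19.8% of the whole list. It was 61.3% with the SOX2 list limited to as many peaks as the CHD7 list, against 40.4% of the whole CHD7 list. With the 10000 strongest peaks of each list it was 50% (7 of 14), against 46.4% of those 10000 CHD7 peaks. By position, 10 of the set's 31 peaks, or 32.3%, were at its own gene ends. Of the whole list, 18.3% was at an end of some gene. The shares are not alike, because the set's peaks were collected only around its genes. All 10 end peaks of the set were shared (69.2% to 100%), against 85.7% of 6049 end peaks in the list, a difference within the interval of the set. Of its other 21 peaks 16 were shared, or 76.2% (52.8% to 91.8%), against 60.8% (60.2% to 61.4%) of 26986 in the list, a difference within the interval of the set. The 21 still held 2 flank peaks at a neighbour's end, whereas the 26986 held no peak at any protein-coding gene end. The 5 unshared peaks lay in the flanks, 1 each at Spry4, Spred1, Spred2, Etv1 and Il17rd. In the other direction 27 of 117 SOX2 peaks were shared, or 23.1% (15.8% to 31.8%), against 14.7% (14.5% to 14.9%) of SOX2 peaks elsewhere. At the ends 10 of 15 were shared (38.4% to 88.2%), against 35.0% of 15303 in the list, just below the interval of the set. Away from them 17 of 102 were shared, or 16.7%, against 12.5% in the list, which lay within the exact 95% interval of the set. The 102 likewise held 2 flank peaks at a neighbour's end. The centres of maximum signal of the 26 shared peaks were a median of 100 bases from the nearest such centre in the SOX2 list's overlapping peaks, against 125 bases over 21586 shared peaks. Neighbouring peaks of a locus are not independent, and no test was made.

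The choice of peaks rests on limits of 1 kb and 50 kb. The end peak farthest from a border was 809 bases away for CHD7 (Spred2) and 749 for SOX2 (Spry1), and the nearest peak left out was 1581 bases away for CHD7 and 1004 for SOX2, both at Spry2. At the outer limit the last CHD7 and SOX2 peaks counted were 48531 and 49381 bases from Spry2, and the first ones left out were 50621 bases from Spred1 and 50381 from Spry2.

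Other genes of the FGF pathway were read in the same way, with no test of a difference from the set. Of 52 genes, 26 had CHD7 at an end, 37 had SOX2, 24 had both and 13 had neither, beside shares of 30.8%, 59.7%, 28.3% and 37.8% of all genes. Among 6 ligand genes 2 had CHD7 and 5 had SOX2, and among 3 receptor genes 2 and 3 did. For 12 kinase cascade genes, from RAS to ERK and with Rps6ka1 and Rps6ka3 downstream of ERK, CHD7 and SOX2 were at 6 and 8. They were at 3 and 6 among 9 adaptor genes and at 4 and 4 among 7 other ETS factor genes. Among 9 further negative regulators they were at 5 and 7, among 3 FLRT genes at 1 and 1, and each was at all 3 immediate early genes. The genes with both and the highest ranks of end signal were the adaptor genes Shc1 (2979 for CHD7 and 9794 for SOX2) and Gab1 (1325 and 7419), the phosphatase gene Dusp10 (2204 and 12521), the RAS inhibitor gene Rasa1 (1722 and 7096), the immediate early gene Egr1 (2541 and 6128) and the ERK kinase gene Map2k2 (1107 and 7125). Cbl, Dusp9, Elk3 and Ets1 were among those with neither. Of the closest relatives of the set, Spred3 had both (692 and 3108) and Spry3 had neither. The position given for Spry3 on chromosome X, 101352 to 110912, lies before the first peak of either list there. Its lack of peaks therefore says nothing about Spry3. The gene is still counted in the 52 genes, the 13 with neither and the 9 further negative regulators. Spred3 and Spry3 were singled out after their values were seen.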

How the data were processed

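CUT&Tag libraries of pooled wild-type mouse otocysts were used as 2 peak lists, 1 per antibody, as the authors deposited them. Per the submitters' processing notes, the tools were Bowtie2, deepTools and SEACR and the build was mm10. Versions, calling settings, use of the control and duplicate handling were not given in the sources used here. Each peak has a total and a maximum coverage signal, as deposited by the authors, on a scale that is not given, so signal was used only within a list. Read depth is unknown. Borders follow bins of 50 bases, and coordinates count from 1.

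Genes were the 21887 protein-coding genes of RefSeq on GRCm38.p6. A peak belonged to a gene end when it had a base within 1 kb of either border, otherwise to the body or the 50 kb flanks. Strand and promoter sequences came from the RefSeq promoter table, and both were used for 8 of the 10 genes. Exons and untranslated regions were not told apart. Intervals are exact binomial (Clopper-Pearson) at 95%. The genes and lists were chosen with earlier results of these data known, and no p-value is given. All 10 genes are named with their values. Of 52 other pathway genes the text names the first 6 with both end peaks, by the worse rank of end signal, and the first 4 by alphabet with neither. Many of the strongest peaks by place and pair are named, but not all of them. Others that show the layout were chosen after their values were seen. The counting was tested on simulated peaks. Scripts ran in Python 3.11.15 with pandas 2.3.3, numpy 2.4.6 and scipy 1.17.1, and figures were drawn with matplotlib 3.10.9.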

Additional observations from a re-analysis of the deposited data

How the results depend on the processing

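Of 36 alternatives 24 left a count within 1.5 times its value, or the shared percentage within its interval, and 12 did not. End counts were the same 8, 10 and 8 (CHD7, SOX2, both) with gene ends of 500 bases or 2 kb, where all genes had 28.5%, 52.4% and 25.5%, and 34.1%, 68.6% and 31.7%. With the stronger 50% of peaks they were 6, 10 and 6, against 19.2%, 47.7% and 17.7% of all genes, and the loci held 19 CHD7 peaks, 61 SOX2 peaks and 16 shared CHD7 peaks. With the 10000 strongest peaks of each list the end counts were 5, 6 and 5, against 13.3%, 16.9% and 9.06%. The loci then held 14 CHD7 peaks, 13 SOX2 peaks and 7 shared ones, or 50% shared, against 46.4% of those 10000 CHD7 peaks. These sets hold fewer peaks by construction. The shared percentage was 29% when the maximum-signal regions had to share a base and 61.3% with the SOX2 list limited to as many peaks as the CHD7 list. Coverage of at least 50% of the CHD7 peak gave 71%, against 52.6% of the whole list. Counting peaks nearest to the gene left 27 CHD7 and 98 SOX2 peaks. No paired analysis was possible because there is 1 library per antibody, and no replicate could be left out. Depth is unknown, so an end without a peak may lie below the calling threshold.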
